A study of Mus musculus with 4 samples.

Results

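The genes described here are 36 immediate early and activity-regulated genes, measured in mouse cortex 24 h after a stroke. They were taken from a named list: a gene was found through the RefSeq accession of its probe, and where a gene had several probes the brightest stood for it. All 36 were found among the 20832 genes with a symbol on the array, and all 36 were among the 24580 features bright enough to be tested. The samples were total RNA of the ipsilateral cortex of C57BL/6 mice aged 8 weeks, after permanent occlusion of the left middle cerebral artery (permanent MCAO). The groups were Ndrg2KO mice, in which Ndrg2, a gene known for its expression in astrocytes, is knocked out, and wild-type mice. Each of 4 arrays paired a knockout-labelled sample (Cy3) with the wild-type sample of the same replicate number (Cy5). Both groups had the occlusion, so no value here is a response to the stroke itself.

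Immediate early genes are switched on within minutes of a stimulus, without new protein synthesis, when calcium or growth factor signals reach transcription factors already bound at their promoters, such as CREB, SRF and the Elk proteins. Many encode transcription factors of the Fos, Jun, Egr and Nr4a families, which in turn switch on later genes. Others act directly at synapses (Arc, Homer1, Nptx2), are secreted (Bdnf) or shut the signal down again (the Dusp phosphatases). In the brain they follow neuronal firing and the waves of depolarization that spread from an infarct, and glial and vascular cells induce many of them too.

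The value given for a gene is the log2 ratio of knockout over wild-type signal on an array, so that 0 means equal signal, a negative value means less signal in the knockout-labelled sample. Signals of single samples are normalized log2 intensities, comparable for a gene across samples but not between genes. A gene passed at an adjusted p under 0.05 (limma, Benjamini-Hochberg over all 24580 features). No array had the dyes exchanged, so an effect of the dye on a probe and an effect of genotype cannot be told apart. Whether every sample was a separate animal is not stated in the labels, and p-values therefore measure no more than the spread among these samples, part of which may be technical. All 4 arrays lay on 1 slide. Ndrg2 itself had log2 ratios of -0.22, -0.22, -0.18 and -0.11 on arrays 1 to 4, a mean of -0.18 ± 0.05 (SD, n = 4; limma, adjusted p = 0.0248), and it did not pass in 3 of the 4 fits that left out an array. Its mean depended on the normalization, at -0.04 with the scanner software's log ratios and -0.81 with median centring. Where its single probe lies relative to the deleted part is not given in the sources used here, so the probe does not check the genotype, and the samples are called knockout-labelled.

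Of the 36 genes, 8 fell in the knockout-labelled samples and 0 rose, and 28 did not pass. The 8 were Jund, Nptx2, Bdnf, Klf4, Maff, Gadd45b, Fosb and Egr2, from 1.14-fold (Klf4) to 1.52-fold (Egr2). That is 22.2% of the genes, where 12.7% of all features tested were lower and 8.62% higher, 21.3% in either direction. Without a correction for multiple tests, 13 of the 36 genes had p under 0.05 (36.1%), against 37.3% of all features, and of these 13 only Klf2 was higher. The mean was below 0 for 29 of the 36 genes (80.6%), against 55.7% of all features, and the median of the 36 means was -0.12, against -0.02 for all features. Only Fos and Egr2 differed by at least 1.5-fold (5.56% of the genes, against 0.639% of features), and Fos did not pass. In these bulk samples, fewer cells of a type and less RNA per cell cannot be told apart.

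**Figure D1:**
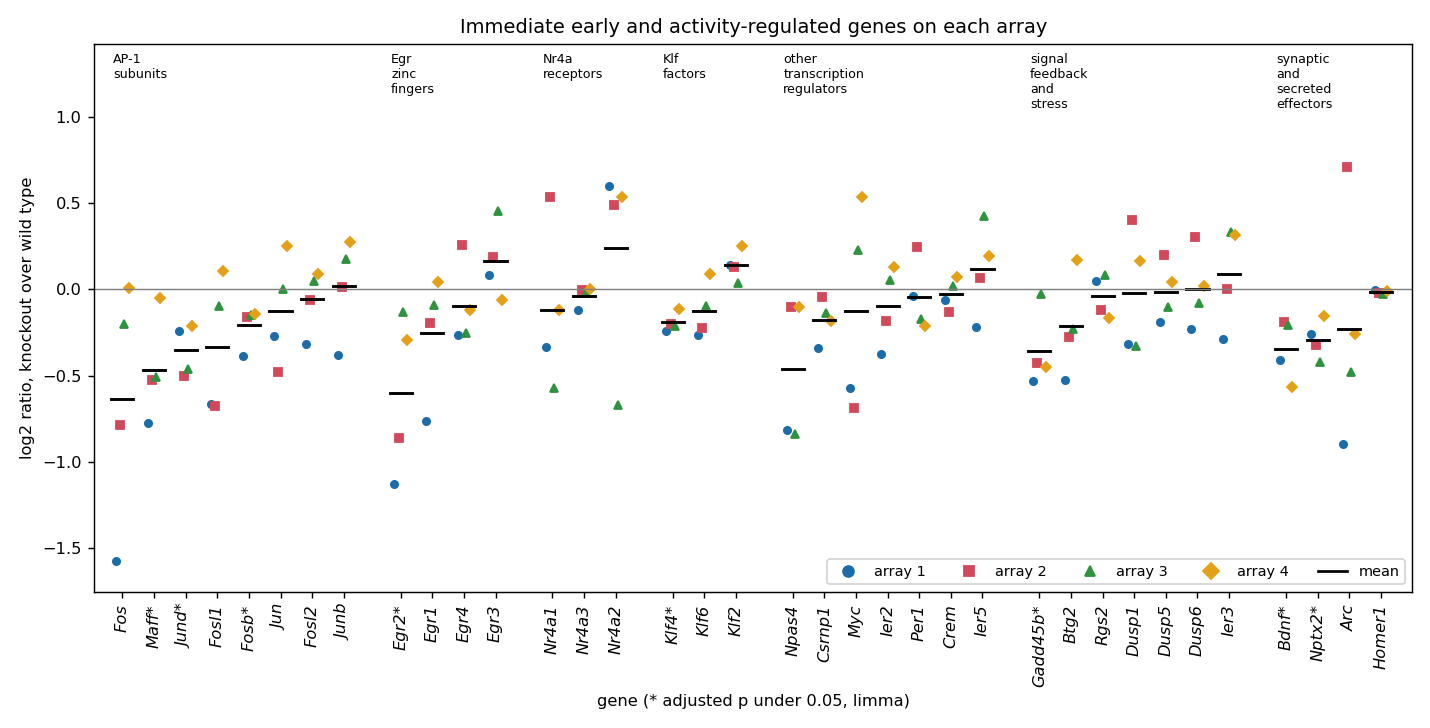
Log2 ratio of knockout over wild-type signal (y axis) for each of the 36 genes (x axis, grouped by role), with 1 point per array and a bar at the mean of the 4 arrays; an asterisk marks an adjusted p under 0.05 (limma). The means run from -0.64 for Fos to 0.24 for Nr4a2, and points of arrays 1 to 4 lie far apart for Fos, Egr2, Arc, Nr4a1, Nr4a2 and Myc.

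The promoters of these genes are shown because elements that respond to these signals are known to lie at such promoters. RefSeq windows of the 250 bases before a start site (GRCm38.p6) were used. Incomplete windows and all windows of a single chromosome were left out, which left 28 of the 36 genes with a window. The genes without one were Arc, Crem, Egr1, Egr3, Fosl1, Ier2, Myc and Nptx2. Both strands were searched for the cAMP response element TGACGTCA, its part TGACG (which lies inside the full element), the AP-1 element TGANTCA, the Egr element GCGNGGGCG and the CArG box bound by SRF. Printed 5′ to 3′ along the gene's strand, with matches on either strand in capitals, are Fos, which differed most, Fosb and Klf4, which fell, and Btg2, which holds the full cAMP response element. They lie at chr12:85473640-85473889 (plus strand, Fos), chr7:19310046-19310295 (minus, Fosb), chr4:55532476-55532725 (minus, Klf4) and chr1:134079156-134079405 (minus, Btg2).
Fos: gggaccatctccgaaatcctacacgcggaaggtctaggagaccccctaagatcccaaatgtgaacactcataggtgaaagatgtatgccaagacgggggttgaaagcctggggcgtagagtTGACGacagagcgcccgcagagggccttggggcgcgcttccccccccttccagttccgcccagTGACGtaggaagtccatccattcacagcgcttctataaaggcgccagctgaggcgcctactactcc
Fosb: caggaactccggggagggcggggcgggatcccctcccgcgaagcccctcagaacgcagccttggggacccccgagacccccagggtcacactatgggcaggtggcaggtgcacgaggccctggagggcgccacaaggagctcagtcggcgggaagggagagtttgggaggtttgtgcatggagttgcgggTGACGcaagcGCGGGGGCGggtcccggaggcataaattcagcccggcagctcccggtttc
Klf4: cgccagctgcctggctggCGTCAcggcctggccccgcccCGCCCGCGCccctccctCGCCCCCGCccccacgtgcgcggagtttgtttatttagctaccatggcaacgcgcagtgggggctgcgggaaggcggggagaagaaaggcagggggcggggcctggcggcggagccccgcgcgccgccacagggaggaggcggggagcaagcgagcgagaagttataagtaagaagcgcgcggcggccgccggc
Btg2: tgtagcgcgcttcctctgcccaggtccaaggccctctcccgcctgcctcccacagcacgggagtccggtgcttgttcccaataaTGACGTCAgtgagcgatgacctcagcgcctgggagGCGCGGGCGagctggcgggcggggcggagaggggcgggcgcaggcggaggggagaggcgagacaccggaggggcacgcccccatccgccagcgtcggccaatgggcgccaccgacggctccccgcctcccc
The Fos window holds TGACG with its first base 129 and 66 bases before the start, and the Fosb window holds it at 60 beside an Egr element at 50. The Klf4 window has TGACG on the other strand at 232, and Egr elements at 211 and 194. In the Btg2 window the full element begins 166 bases before the start.

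TGACG was found for 20 of the 28 genes (71.4%), against 19.8% of 27025 genes with a window. These included Fosb, Egr2, Klf4, Bdnf and Maff of the genes that fell, and Npas4, Nr4a1 and Dusp1 among those that did not pass. The full TGACGTCA was found for 3 genes, Btg2, Dusp1 and Maff, against 1.77% of genes, the Egr element for 10 genes (35.7%, against 5.33%) and the CArG box for Egr2 and Dusp5 (7.14%, against 1.62%). TGANTCA was found for Bdnf and Csrnp1 (7.14%, against 7.82%). Some genes had several windows, and any match among them counted. Counted by window instead, TGACG was in 60.0% of the 45 windows of these genes, against 17.8% of 32851 windows. The Egr element was in 22.2% of them, against 4.70%. A match describes the letters in the window and is not a measured binding site. Bases further than 250 before the start were not searched, so a gene without a match, such as Fos for the CArG box, may hold one there. The window of Jund, a gene that fell, held none of these letters.

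The 8 genes of the AP-1 group encode Fos and Jun proteins, which pair through leucine zippers to bind AP-1 elements, and Maff, a small Maf protein with the same kind of zipper. Fosb, Jund and Maff fell, and the other 5 genes did not pass. Jund, the Jun protein that is present in most cells at rest, had log2 signals of 13.88, 13.71, 13.67 and 13.86 in the knockout-labelled samples of arrays 1 to 4 and of 14.12, 14.21, 14.13 and 14.07 in the wild-type samples. Every knockout-labelled sample was below every wild-type sample. The mean log2 ratio of Jund was -0.35 ± 0.15 (SD, n = 4), a 1.28-fold lower signal (limma, adjusted p = 0.0110).

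Maff had log2 ratios of -0.77, -0.53, -0.51 and -0.05, a mean of -0.46 ± 0.30 (SD, n = 4; 1.38-fold; limma, adjusted p = 0.0231). Its signals overlapped between the groups, from 8.85 to 9.89 in knockout-labelled samples and from 9.62 to 10.26 in wild-type samples, and array 4 showed almost no difference. Fosb, which marks neurons after strong or repeated firing, had ratios of -0.38, -0.16, -0.15 and -0.14, a mean of -0.21 ± 0.12 (SD, n = 4; 1.16-fold; limma, adjusted p = 0.0345). Array 1 lay apart and the other 3 arrays were close together.

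Fos, the gene most used as a marker of recent neuronal activity, spread more widely than any other of the 36. Its log2 ratios were -1.57, -0.78, -0.20 and 0.01 on arrays 1 to 4, a mean of -0.64 ± 0.71 (SD, n = 4), or 1.56-fold, and it did not pass (limma, adjusted p = 0.0895). The knockout-labelled signals were 9.66, 10.14, 11.29 and 11.04, and the wild-type signals 11.23, 10.93, 11.49 and 11.03. The wild-type samples lay close together (SD 0.25), and the knockout-labelled samples did not (SD 0.76): those of arrays 1 and 2 were below all wild-type samples, and those of arrays 3 and 4 lay among them. Fosl1, a Fos relative induced later and lacking a strong activation domain, was likewise lower on arrays 1 and 2 than on arrays 3 and 4, with ratios of -0.66, -0.68, -0.10 and 0.11 (mean -0.33 ± 0.40, SD, n = 4; limma, adjusted p = 0.117). Its wild-type signals stayed between 8.58 and 8.75, while the knockout-labelled ones were 7.94 and 7.90 on arrays 1 and 2 and 8.65 and 8.75 on arrays 3 and 4.

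Jun, the partner that Fos most often pairs with, had ratios of -0.27, -0.48, 0.00 and 0.25, a mean of -0.12 ± 0.32 (SD, n = 4; limma, adjusted p = 0.440). Junb, with ratios of -0.38, 0.01, 0.17 and 0.27, averaged 0.02 ± 0.29, and Fosl2 averaged -0.06 ± 0.18 (both SD, n = 4). In all 3 genes, by the brightest probe, array 4 was highest and array 1 or 2 lowest. A second, dim Fosl2 probe was instead lowest on array 4, at -0.22. The median over the 8 AP-1 genes was -0.38, -0.49, -0.12 and 0.05 on arrays 1 to 4.

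The Egr genes encode zinc finger factors that follow MAP kinase signalling and bind GC-rich Egr elements. Egr2, also known for its part in myelination, fell, and Egr1, Egr3 and Egr4 did not pass. Egr2 had log2 signals of 8.57, 8.91, 9.85 and 9.28 in the knockout-labelled samples and of 9.70, 9.77, 9.98 and 9.57 in the wild-type samples. Its ratios of -1.13, -0.86, -0.13 and -0.29 were negative on every array, but the groups overlapped because the knockout-labelled sample of array 3 lay within the wild-type range. The mean was -0.60 ± 0.47 (SD, n = 4; 1.52-fold; limma, adjusted p = 0.0345).

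Egr1 had ratios of -0.76, -0.19, -0.09 and 0.04, a mean of -0.25 ± 0.35 (SD, n = 4; limma, adjusted p = 0.174), again lowest on array 1 and highest on array 4. Egr3, a relative also known from the development of muscle spindles, was the only Egr gene with a mean above 0, at 0.16 ± 0.22 (SD, n = 4; limma, adjusted p = 0.182). The Egr3 probe was well above background in every sample but dim, brighter than only 10.6% of the features tested. Egr4 averaged -0.10 ± 0.24 (SD, n = 4), with ratios of -0.27, 0.25, -0.25 and -0.12. Its only positive array was array 2.

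Nr4a receptors are orphan nuclear receptors that act without a known natural ligand, and none of the 3 passed. Nr4a1 had knockout-labelled signals of 13.59, 14.09, 13.49 and 13.04 and wild-type signals of 13.93, 13.56, 14.06 and 13.16. Its ratios of -0.33, 0.54, -0.57 and -0.12 gave a mean of -0.12 ± 0.48 (SD, n = 4; limma, adjusted p = 0.605), with array 2 alone above 0. Nr4a2, a factor that dopamine neurons depend on, ran 0.60, 0.49, -0.67 and 0.53, a mean of 0.24 ± 0.61 (SD, n = 4; limma, adjusted p = 0.418), with array 3 alone below 0. A second Nr4a2 probe had the same sign on each array, at 0.30, 0.18, -1.09 and 0.12, with a mean of -0.12. Nr4a3 was near background: its probe was well above background in all 4 wild-type samples and in 1 knockout-labelled sample, with a mean ratio of -0.04 ± 0.06 (SD, n = 4).

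The Klf factors are zinc finger proteins, of which Klf2 and Klf4 are known for restraining inflammation in blood vessel walls. Klf4 had knockout-labelled signals of 9.23, 9.55, 9.76 and 9.49 and wild-type signals of 9.47, 9.75, 9.98 and 9.60. The groups overlapped because both samples of array 1 were low and both of array 3 high, but within each array the knockout-labelled sample was lower, by -0.24, -0.20, -0.21 and -0.11. The mean of -0.19 ± 0.06 (SD, n = 4; 1.14-fold; limma, adjusted p = 0.0222) had one of the smallest spreads of the 36 genes. Klf2, a factor that endothelial cells induce under flow, stood at 0.14, 0.13, 0.03 and 0.25, a mean of 0.14 ± 0.09 (SD, n = 4) that did not pass (limma, adjusted p = 0.0801). It was the only one of the 36 genes above 0 on all 4 arrays (2.78%, against 18.7% of features). Klf6 averaged -0.12 ± 0.16 (SD, n = 4; limma, adjusted p = 0.204).

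None of 7 other regulators of transcription passed. Npas4, which is induced by calcium entry in neurons and shapes their inhibitory synapses, came nearest, with ratios of -0.81, -0.10, -0.84 and -0.10 and a mean of -0.46 ± 0.42 (SD, n = 4; 1.38-fold; limma, adjusted p = 0.0541). Its signals were 11.03, 11.46, 11.09 and 10.42 in the knockout-labelled samples and 11.84, 11.56, 11.93 and 10.52 in the wild-type samples. The gap was wide on arrays 1 and 3 and narrow on arrays 2 and 4, where both samples of array 4 were the lowest of their group. Csrnp1, a nuclear protein whose gene Axin induces, was below 0 on every array, with a mean of -0.18 ± 0.12 (SD, n = 4; limma, adjusted p = 0.0611).

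Myc, a regulator of growth and metabolism, had a mean of -0.12 ± 0.60 (SD, n = 4; limma, adjusted p = 0.681) that hid a split between arrays. The wild-type signals were 9.35, 9.40, 9.44 and 9.37 (SD 0.04), and the knockout-labelled signals were 8.78, 8.71, 9.67 and 9.90 (SD 0.61). The knockout-labelled samples of arrays 1 and 2 were below every wild-type sample, and those of arrays 3 and 4 were above every wild-type sample. Per1, a clock gene that activity also induces, averaged -0.04 ± 0.21, and Crem, whose short product represses cAMP-driven transcription, averaged -0.03 ± 0.09 (both SD, n = 4). Ier2 averaged -0.09 ± 0.23 and Ier5 0.12 ± 0.27 (both SD, n = 4).

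Some genes of the signal feedback and stress group, such as the Dusp phosphatases, limit the response that the other groups carry. Of the 7 genes of this group, only Gadd45b fell. Gadd45b, a stress protein that promotes demethylation of DNA at activity-regulated genes, had ratios of -0.53, -0.43, -0.03 and -0.45, a mean of -0.36 ± 0.22 (SD, n = 4; 1.28-fold; limma, adjusted p = 0.0236). Its signals were 11.19, 11.33, 12.01 and 11.42 in the knockout-labelled samples and 11.72, 11.76, 12.04 and 11.86 in the wild-type samples. The sample of array 3 alone brought the groups into overlap.

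The 3 phosphatases that inactivate MAP kinases, Dusp1, Dusp5 and Dusp6, had means of -0.02 ± 0.36, -0.01 ± 0.17 and 0.00 ± 0.22 (SD, n = 4). All 3 were below 0 on arrays 1 and 3 and above 0 on arrays 2 and 4. Btg2, an antiproliferative gene, had ratios of -0.52, -0.28, -0.23 and 0.17, a mean of -0.22 ± 0.29 (SD, n = 4; limma, adjusted p = 0.163). Ier3, which acts on cell survival, averaged 0.09 ± 0.29, and Rgs2, which shortens signals from G proteins, averaged -0.04 ± 0.12 (both SD, n = 4). A second, dimmer Rgs2 probe ran 0.16, 0.17, 0.17 and -0.10, with a mean of 0.10, so the means of the probes disagree in sign.

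Among the synaptic and secreted effectors, Bdnf and Nptx2 fell. Bdnf, the neurotrophin released by active neurons, had knockout-labelled signals of 10.62, 10.64, 10.56 and 10.30 and wild-type signals of 11.03, 10.83, 10.77 and 10.87. The groups did not overlap, and the ratios of -0.41, -0.19, -0.21 and -0.57 averaged -0.34 ± 0.18 (SD, n = 4; 1.27-fold; limma, adjusted p = 0.0169). Nptx2, a secreted pentraxin that gathers AMPA receptors at synapses onto interneurons, had knockout-labelled signals of 11.26, 11.12, 11.04 and 11.23 and wild-type signals of 11.52, 11.44, 11.47 and 11.39. These did not overlap either, with a mean ratio of -0.29 ± 0.11 (SD, n = 4; 1.22-fold; limma, adjusted p = 0.0123), and a second Nptx2 probe averaged -0.19 ± 0.11 (SD, n = 4).

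Arc, whose protein drives the removal of AMPA receptors from synapses, did not pass. Its signals were 13.33, 14.43, 14.14 and 13.15 in the knockout-labelled samples and 14.22, 13.72, 14.62 and 13.41 in the wild-type samples. Both groups spread widely, with SDs of 0.62 and 0.53, and the ratios of -0.89, 0.71, -0.48 and -0.26 (mean -0.23 ± 0.68, SD, n = 4; limma, adjusted p = 0.482) changed sign on array 2. Homer1, a scaffold of the postsynaptic density with a short activity-induced form, stood at -0.01 ± 0.01 (SD, n = 4) by its brightest probe. Its other 4 probes averaged 0.16, 0.11, 0.17 and -0.18, and which of them read the short form is not given in the sources used here.

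**Figure D2:**
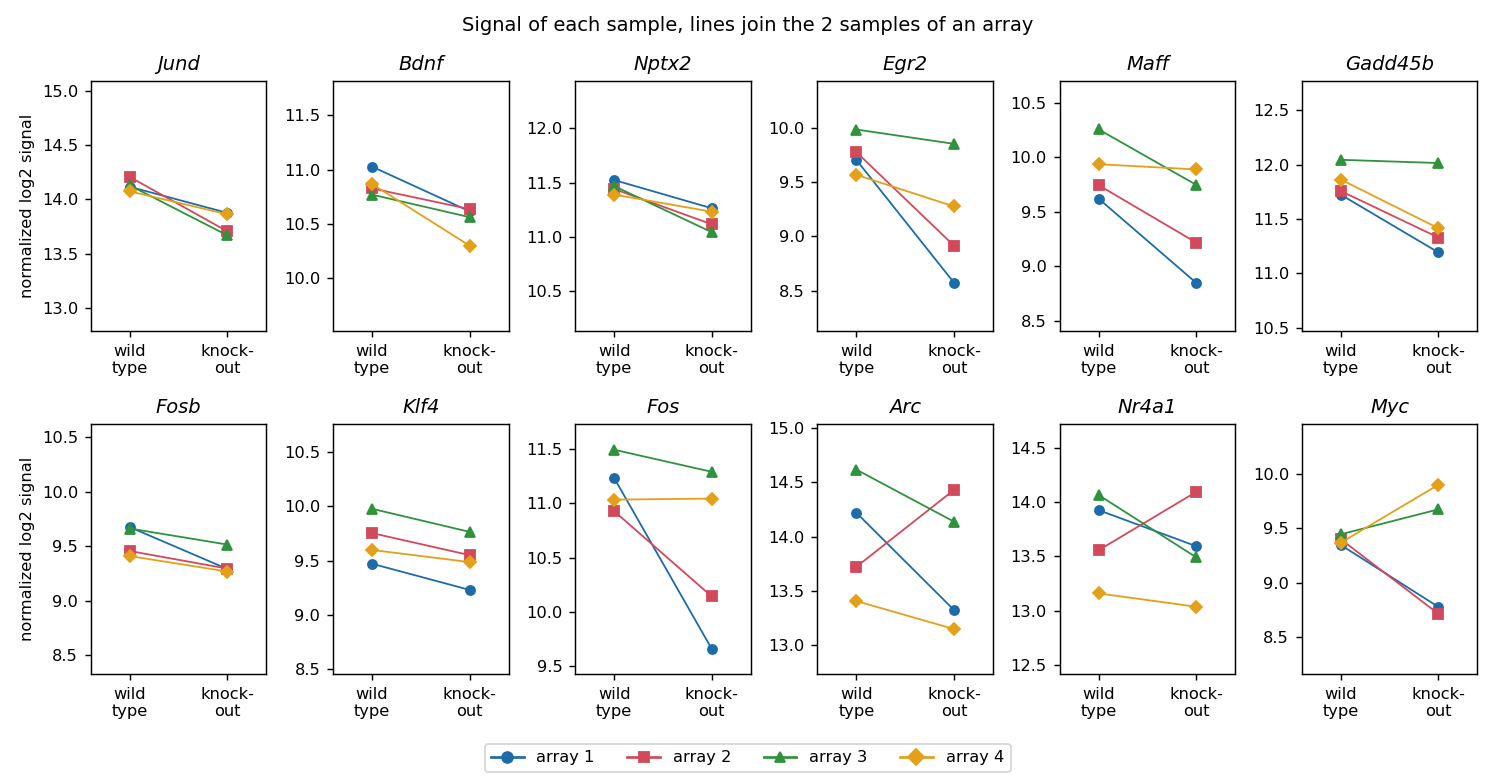
Normalized log2 signal (y axis; every panel spans the same range) of each wild-type and knockout-labelled sample for the 8 genes that fell and for Fos, Arc, Nr4a1 and Myc; a line joins both samples of an array. The groups are separate for Jund, Bdnf and Nptx2, and for Myc the wild-type samples lie together while the knockout-labelled ones lie below them on arrays 1 and 2 and above them on arrays 3 and 4.

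Every knockout-labelled signal was below every wild-type signal for Jund, Bdnf and Nptx2 only, 3 of 36 genes (8.33%), against 10.6% of all features, and the reverse was true of 0 genes, against 9.04%. Below 0 on all 4 arrays were 11 genes (30.6%, against 25.1% of features): the 8 that fell and Npas4, Csrnp1 and Homer1. Homer1 counts there only by its brightest probe, whose values were all close to 0, and 3 of its 5 probes were above 0 on all 4 arrays. The groups of genes with like signs on the arrays, given next, were picked after their values were seen. The median of the 36 genes was -0.30, -0.11, -0.10 and 0.01 on arrays 1 to 4, and 32, 23, 25 and 17 of them were below 0. Array 1 was the lowest array for 20 genes (55.6%), as it was for 23.9% of all features.

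Egr4, Arc, Nr4a1, Dusp1, Dusp5, Dusp6 and Per1 were above 0 on array 2 and below 0 on arrays 1 and 3, which makes 7 genes (19.4%), against 6.98% of features. By brightest probe, Fosl2, Jun, Ier2, Myc and Crem were below 0 on arrays 1 and 2 and above 0 on arrays 3 and 4. That makes 5 genes (13.9%), against 5.54%. On array 3 Jun stood at 0.00053 and Crem at 0.018, both close to 0, and a second Crem probe at -0.018. A second, dim Fosl2 probe ran -0.02, 0.08, -0.09 and -0.22, with the other sign on arrays 2, 3 and 4. The ratio spread more between arrays than for most features: the median SD was 0.227 over the 36 genes and 0.0976 over all features, and 12 genes (33.3%) had an SD above 0.3, against 2.99% of features. The knockout-labelled samples spread more than the wild-type samples for 28 genes (77.8%), against 62.2% of features.

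Markers of other cell types were read beside these values, by array. A summed signal adds the signals of all tested genes of a list. Its brightest probes weigh most in it, so it is not a measure of cell content. The counts of markers that passed stand beside 12.7% of all features that fell and 8.62% that rose. The median of 17 neuron markers stayed near 0, at -0.06, -0.03, 0.04 and -0.07, and their summed signal ran from 18.81 to 18.92 in knockout-labelled samples and from 18.86 to 18.93 in wild-type samples. Of the neuron markers, 4 fell and 2 rose, with Syn1 at -0.23 ± 0.07 and Nefm at 0.26 ± 0.04 (both SD, n = 4). Of 10 astrocyte markers 3 fell, Aldoc, Slc1a2 and Aqp4, with list medians of -0.22, -0.19, -0.05 and -0.12 and summed signals of 17.54 to 17.71 against 17.84 to 17.92. Of 12 markers of microglia and macrophages 5 fell, with Cx3cr1 at -0.29 ± 0.06 (SD, n = 4), list medians of -0.17, -0.15, -0.08 and -0.19 and summed signals of 16.58 to 16.69 against 16.75 to 16.83.

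Some lists changed between arrays much as the AP-1 genes did, lower on arrays 1 and 2 than on arrays 3 and 4. The astrocyte markers, with the medians given above, were among these lists. Among the 36 genes the pattern was not particular to the AP-1 group. The Klf factors had medians of -0.24, -0.20, -0.10 and 0.09, and the other regulators of transcription -0.34, -0.10, 0.02 and 0.07. Of 12 endothelial and mural markers 2 fell, Ly6c1 and Vwf, with list medians of -0.24, -0.24, -0.05 and -0.04 and summed signals of 15.06 to 15.62 against 15.38 to 15.62. Of 11 neutrophil markers 8 were tested and 2 fell, Elane and Csf3r, with medians of -0.22, -0.29, -0.15 and 0.04 and summed signals of 15.47 to 15.72 against 15.81 to 16.02. Csf3r alone, at 15.33 to 15.62 against 15.53 to 15.81, made up most of that sum. S100a8 had wider ratios of -1.28, -1.18, -0.30 and 0.04, a mean of -0.68 ± 0.65 (SD, n = 4). It did not pass (limma, adjusted p = 0.0599). Of 6 erythrocyte markers 1 fell, Hba-a2, with medians of -0.33, -0.64, -0.09 and 0.17 and summed signals of 16.21 to 16.98 against 16.70 to 16.98. Of 7 striatal markers none passed, with medians of -0.28, -0.46, 0.22 and -0.03, and 1 of them had an unadjusted p under 0.05 (limma). Their summed signal in knockout-labelled samples was 14.82, 14.62 and 14.85 on arrays 1, 2 and 4, below the wild-type sample of each array, and highest on array 3, above it, with wild-type samples from 14.73 to 15.05. Of 9 oligodendrocyte markers 2 rose, Olig2 and Mbp, with medians of -0.09, -0.24, 0.24 and 0.31 and summed signals of 17.12 to 17.66 against 17.35 to 17.44. The part of cell composition, dissection or blood in the values of the 36 genes was not tested.

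**Figure D3:**
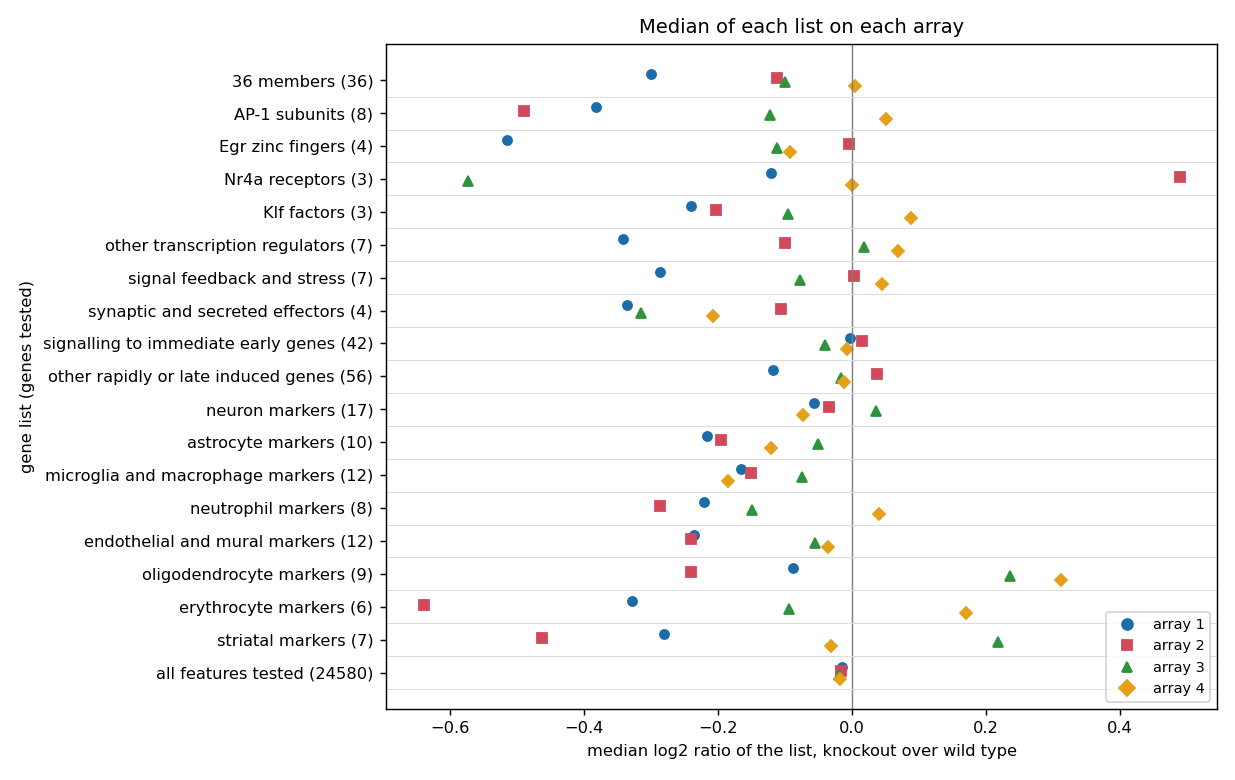
Median log2 ratio of knockout over wild type (x axis) on each array for the 36 genes, their groups by role, the related lists, the cell type markers and all features tested (y axis, number of genes tested in brackets). The medians of all features lie at -0.02 on all 4 arrays, and the neuron markers stay near 0. Lower on arrays 1 and 2 than on arrays 3 and 4 are the AP-1 genes, the Klf factors and the other transcription regulators. The neutrophil, erythrocyte, striatal, endothelial, oligodendrocyte and astrocyte markers are so too. So are the 36 genes as a whole, though arrays 2 and 3 differ little there, at -0.11 and -0.10.

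The genes that carry signals to immediate early promoters were read from a list of 42, all tested: receptors, kinases and the CREB, SRF, Elk and Mef2 factors. Of these 1 rose and 3 fell, a smaller share than the 21.3% of all features that passed in either direction. The list's median was -0.01. Elk1, an SRF partner that MAP kinases phosphorylate, had a mean of -0.59 ± 0.11 (SD, n = 4; limma, adjusted p = 0.00178) by its brightest probe, and 0.27 ± 0.09 (SD, n = 4) by its other, much dimmer probe, so the probes disagree in sign. Mef2a (-0.30 ± 0.06; limma, adjusted p = 0.00665) and Atf1 (-0.22 ± 0.08; limma, adjusted p = 0.0199; SD, n = 4), both transcription factors, fell too. Their other probes averaged 0.05 and -0.02, and neither gene passed with its probes averaged. Map2k1, a MAP kinase kinase, rose by 0.19 ± 0.13 (SD, n = 4; limma, adjusted p = 0.0487) and is named for its pass alone, chosen after its value was seen.

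A list of 56 other rapidly or late induced genes, all tested, had 4 that rose, 5 that fell and a median of -0.03. Those that passed were again a smaller share than the 21.3% of all features that passed in either direction. Rasd1, a small G protein induced by glucocorticoids and activity, rose by 0.29 ± 0.03, and Pcdh8, an activity-regulated protocadherin, by 0.25 ± 0.06 (both SD, n = 4; limma, adjusted p = 0.00564 and 0.0111). Tac1, the precursor of substance P, fell, with a mean of -0.51 ± 0.28 (SD, n = 4; limma, adjusted p = 0.0148). The others that passed, named after their values were seen, were Plk3 (0.22) and Midn (0.18), which rose, and Nab2 (-0.26), Cebpb (-0.22), Amigo3 (-0.20) and Nab1 (-0.18), which fell. Nab1 and Nab2 encode co-repressors that bind Egr proteins, and a second, dimmer Nab2 probe averaged 0.06.

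Several of the calls changed when an array was left out or the processing was altered. Fits on 3 arrays also called fewer of all features lower than the 12.7% on 4 arrays. A lost pass therefore does not by itself single out the array left out. Without array 1, 2 of the 36 genes were lower (5.56%, against 5.97% of all features), and without array 2, 3 were (8.33%, against 4.96%). Without array 3, 5 were lower (13.9%, against 6.54%), and without array 4, 10 were (27.8%, against 7.79%). Jund passed each time, Bdnf and Nptx2 in 3 of 4, Egr2 in 2, Klf4, Gadd45b and Maff in 1, and Fosb in 0. Over these 4 fits the mean of Egr2 ran from -0.76 to -0.43, that of Maff from -0.60 to -0.36, that of Gadd45b from -0.47 to -0.30 and that of Fosb from -0.23 to -0.15. For these 4 genes the mean closest to 0 was the one without array 1.

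Genes that did not pass on 4 arrays passed on some sets of 3 and came closer to 0 on others. Fos had a mean of -0.85 without array 4 (limma, adjusted p = 0.0471) and of -0.33 without array 1. Fosl1 passed without array 4 (-0.48; limma, adjusted p = 0.0405) and stood at -0.22 without array 1 and also without array 2. Npas4 passed without array 4 (-0.58; limma, adjusted p = 0.0401) and stood at -0.34 without array 3. Btg2 passed without array 4 (-0.34; limma, adjusted p = 0.0291) and stood at -0.11 without array 1. Arc passed without array 2 (-0.54; limma, adjusted p = 0.0458) and stood at -0.0097 without array 1. Nr4a2 rose without array 3 (0.54; limma, adjusted p = 0.0111) and stood at 0.12 without array 1. None of these 6 genes passed in more than 1 of the 4 fits.

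With log ratios as the scanner software gave them, only Nptx2 passed of the 36 genes (limma, adjusted p = 0.0373), and the other 7 genes kept their direction at adjusted p from 0.0520 to 0.107 (limma). There, 1 of 36 is 2.78%, and 7.12% of all features were lower. With a background offset of 16, Egr2 and Fosb no longer passed (limma, adjusted p = 0.0572 and 0.0574), which left 6 genes lower (16.7%, against 10.1% of all features). With the knockout-labelled and wild-type signals as unpaired groups, Jund, Nptx2 and Bdnf passed (8.33%, against 6.36% of all features lower). When ratios were centred on the median instead of fitted by loess, the median of all features moved to -0.18 and that of the 36 genes to -0.42, and 25 of the 36 genes were lower and 3 higher, beside 53.6% and 25.8% of all features. All 8 genes that fell kept that direction under each of the 15 alternatives.

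**Figure D4:**
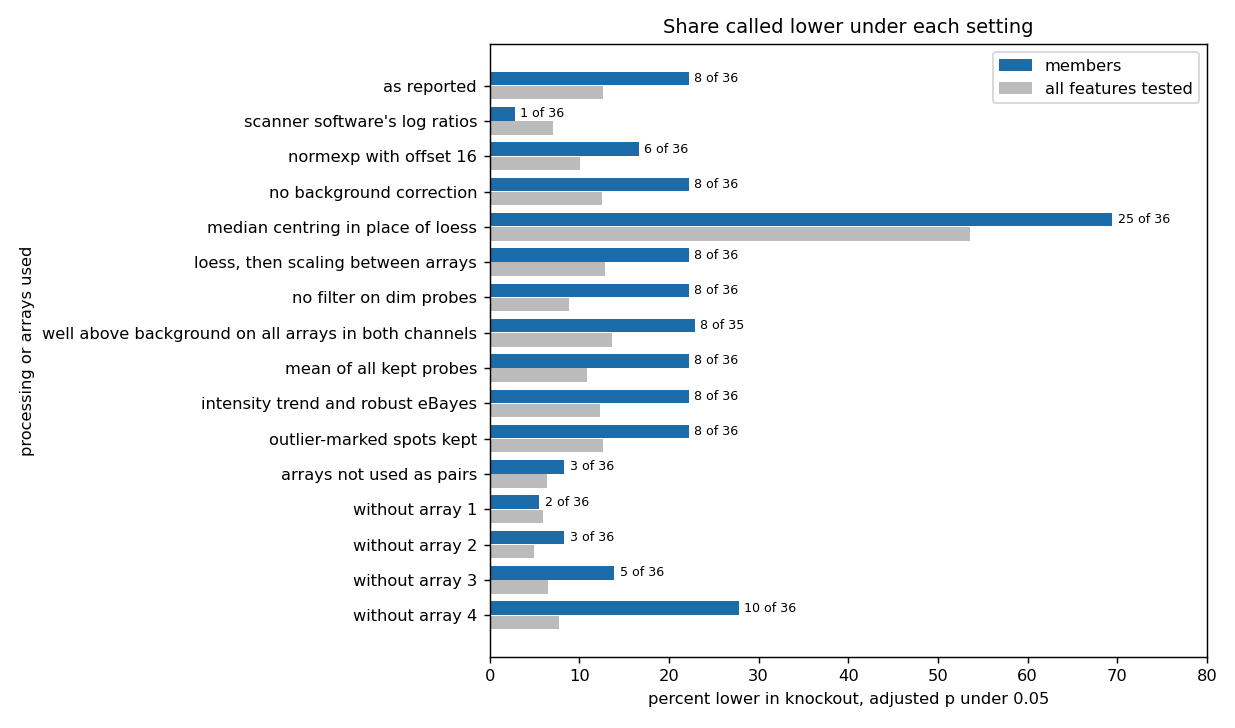
Percent of the 36 genes and of all features tested that were lower in the knockout-labelled samples at an adjusted p under 0.05 (x axis, limma) under each processing or set of arrays (y axis), with the number of genes beside each bar. The share of the 36 genes exceeds that of all features by most settings, and is below it with the scanner software's log ratios and without array 1.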

How the data were processed

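RNA of the ipsilateral cortex was measured on 4 two-colour Agilent arrays. Per the file headers, spot and background signals are deposited as linear intensities made with Agilent Feature Extraction 11.0.1.1, while version 10.7.3.1 stands in the submitters' processing notes. The labelling text, which speaks of plant shoots, gives 200 ng of RNA per sample. Each spot also has a deposited log10 ratio, Cy5 over Cy3, of signals that the scanner software had corrected for background and dye. The values of the series matrix are deposited as log2, equal to within 0.001 to log2 of processed Cy5 over Cy3 on 39030 probes with 1 spot. They run as wild type over knockout, opposite to the direction used here, with column medians of -0.05, -0.06, -0.04 and -0.03. The other deposited values are flags of 0 or 1, per the file headers.

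Median signals were corrected with normexp (offset 50) and loess within arrays (controls at weight 0), with R 4.3.3, limma 3.58.1 and statmod 1.5.0, and 139 to 186 outlier spots per array were left out. Of 43020 spots per array outside the controls, 73.6 to 74.9% were well above background in Cy3 and 76.7 to 79.0% in Cy5, and none was saturated; the number of arrays limits the precision. Spots of a probe were averaged, and a probe was kept if well above background on at least 3 of 4 arrays in 1 channel. Symbols came from a RefSeq table of GRCm38.p6 (69.6% of 39429 probes). Log2 ratios were tested against 0 by limma's lmFit and eBayes, with p-values adjusted after Benjamini-Hochberg and the array as the pair; signals of single samples are after loess and Aquantile. A motif was counted for a gene if any of its windows held it. The steps were tested on simulated data.

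The members and lists were chosen with earlier results of these data known. All members are named, with up to 3 genes of smallest p in each other list, and others are said to be chosen later. Alternatives covered background, normalization, filter, probe choice, eBayes, outlier marks, pairing and leaving out each array.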

Additional observations from a re-analysis of the deposited data

Results flagged for a closer look

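Across the 4 arrays, 1 array lay far from the other 3 for 2 of the 49 genes checked, which were the 36 described here and the 13 others of the related lists that passed. For Fosb, array 1 stood at -0.38 while arrays 2 to 4 stood at -0.16, -0.15 and -0.14, so that the gap took up 0.920 of the range from lowest to highest, more than Dixon's 95% limit for 4 values allows. For Nr4a2, array 3 stood at -0.67 while the other arrays stood at 0.60, 0.49 and 0.53, a gap of 0.915 of the range. Chance gives about 1 in 20 groups, or 2.45 of 49 genes.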

How the results depend on the processing

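Results of the 36 genes under 15 alternatives came to 539, of which 457 kept direction and side of the threshold, 31 lost a pass, 23 gained one (6 of them other than with median centring) and 28 changed sign, 3 of these where either value passed. With the scanner software's log ratios 1750 features and 1 of the 36 genes were lower, 4 of the other induced genes and 8 markers passed, and Fosl2, Dusp1, Dusp5 and Dusp6 stood at 0.0099, 0.015, 0.035 and -0.0053. With median centring 6344 features were higher and 13177 lower, 3 of the 36 genes were higher and 25 lower (median -0.42), and 35 signalling genes, 42 other induced genes and 72 markers passed. The signs then turned for Nr4a2 (-0.048), Nr4a3 (0.64), Ier3 (-0.16), Ier5 (-0.16), Klf2 (-0.13), Dusp5 (0.22), Dusp6 (-0.38), Map2k1 (-0.31), Plk3 (-0.068), Pcdh8 (-0.070) and Midn (-0.17). With the mean of kept probes 2 signalling genes passed, and Homer1 stood at 0.048 and Rgs2 at 0.029. Used without the array as a block that pairs samples, 1261 features were higher and 1563 lower, 3 of the 36 genes were lower, and 2 other induced genes and 9 markers passed. Leaving out each array gave 808 to 1261 features higher and 1219 to 1914 lower, 0 to 1 of the 36 genes higher and 2 to 10 lower, 2 to 4 signalling genes, 3 to 8 other induced genes and 7 to 18 markers. Over the same fits Fosl2 ran from -0.11 to 0.027, Junb from -0.064 to 0.15, Nr4a1 from -0.34 to 0.027, Dusp1 from -0.16 to 0.083, Dusp5 from -0.084 to 0.046, Dusp6 from -0.095 to 0.082, Rgs2 from -0.079 to 0.0025, Myc from -0.34 to 0.064, Per1 from -0.14 to 0.012 and Crem from -0.058 to 0.0093. As reported, 4 signalling genes, 9 other induced genes and 21 markers passed; the alternatives for the markers were chosen after seeing the data. Ndrg2 no longer passed with the scanner software's ratios (-0.043; limma, adjusted p = 0.529) and in 3 of the 4 fits without an array (-0.21 to -0.17 over the 4), and stood at -0.81 with median centring (limma, adjusted p = 6.5e-06). The cause of these changes was not tested. Nr4a3 is too close to background for its ratio to be read.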
